A study of Mus musculus with 12 samples.

Results

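The transcripts of 9 surface markers by which mouse hematopoietic stem cells (HSCs) and multipotent progenitors are recognised, *Kit*, *Ly6a*, *Flt3*, *Cd34*, *Slamf1*, *Cd48*, *Procr*, *Tek* and *Esam*, were followed in RNA-seq of LSKs. LSKs are bone marrow cells that lack the surface proteins of mature blood lineages and carry Sca-1 and c-Kit, and they hold HSCs together with multipotent progenitors. The markers were picked by name out of the 53465 genes of the count table, and the rule uses their names and no measured value, although earlier results of these data were known when they were chosen. The 12 libraries made 4 groups of 3. LSKs came from the bone marrow of wild type littermates (*Tespa1*+/+) or of *Tespa1* knockout mice (*Tespa1*-/-), either untreated or on day 9 after 5-fluorouracil (5-FU), a drug that kills dividing cells and leaves the marrow to be rebuilt. The mice of the study were 8 to 10 weeks old. The mutant strain has a 129S origin and was crossed to C57BL/6 for more than 6 generations, and the mutation is carried in the germline, so the marrow around the knockout LSKs carried it as well. The labels do not say whether a library came from 1 mouse or from several.

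*Kit* encodes c-Kit, the receptor of stem cell factor, and *Ly6a* encodes Sca-1, a small membrane-anchored protein. Both proteins define the LSK gate. Within the gate, the stem cells are poor in FLT3 (the receptor of FLT3 ligand) and CD34 (a sialomucin) and rich in CD150 (the product of *Slamf1*), while CD48 appears on progenitors as they lose long-term repopulating ability. The endothelial protein C receptor (*Procr*), the angiopoietin receptor TIE2 (*Tek*) and the adhesion molecule ESAM (*Esam*) are enriched on HSCs and are shared with the endothelium of blood vessels. After 5-FU, the surface level of c-Kit on stem cells is known to drop for several days.

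Levels between libraries are given as CPM, the counts of a gene scaled to a common library size after TMM normalization. Levels between genes are given in FPKM, which divides by gene length as well. Differences are log2 fold changes of edgeR's quasi-likelihood test with their standard errors (SE), and a call required an adjusted p (Benjamini-Hochberg, over all genes tested) below 0.05. All 9 markers passed the filter on low counts in every comparison. Intervals are 95% intervals of the fitted log2 fold change.

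The markers moved apart after 5-FU, in both genotypes. In *Tespa1*+/+ LSKs, 3 of the 9 were called higher after 5-FU (*Slamf1*, *Tek* and *Esam*) and 2 lower (*Flt3* and *Cd34*), where 7.95% of all 17002 genes tested were called, 3.77% as higher and 4.18% as lower. In *Tespa1*-/- LSKs, *Slamf1*, *Procr*, *Tek* and *Esam* were higher and *Flt3*, *Cd34* and *Cd48* were lower, which makes 7 of 9 where 19.4% of all genes were called, 10.7% as higher and 8.64% as lower. The median log2 fold change of the 9 was 0.72 in *Tespa1*+/+ and -0.09 in *Tespa1*-/-, against 0.01 and -0.01 over all genes.

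Between the genotypes, the calls went in 1 direction. In untreated LSKs, *Flt3* and *Cd34* were lower in *Tespa1*-/- and 0 markers were higher, where 5.23% of all genes were called, 3.59% as lower and 1.64% as higher. After 5-FU, *Kit*, *Ly6a*, *Flt3* and *Cd34* were lower and 0 were higher, where 13.1% of all genes were called, 5.78% as lower and 7.34% as higher. The count of higher markers was also 0 in both comparisons with DESeq2 and at an unadjusted p below 0.05. Over the 9, the median difference was -0.23 in untreated LSKs and -0.45 after 5-FU on the log2 scale, against 0.01 and -0.01 over all genes. The 2 genotype comparisons and the 2 drug comparisons share their groups, so their values stand side by side and are not independent of each other.

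**Figure D1:**
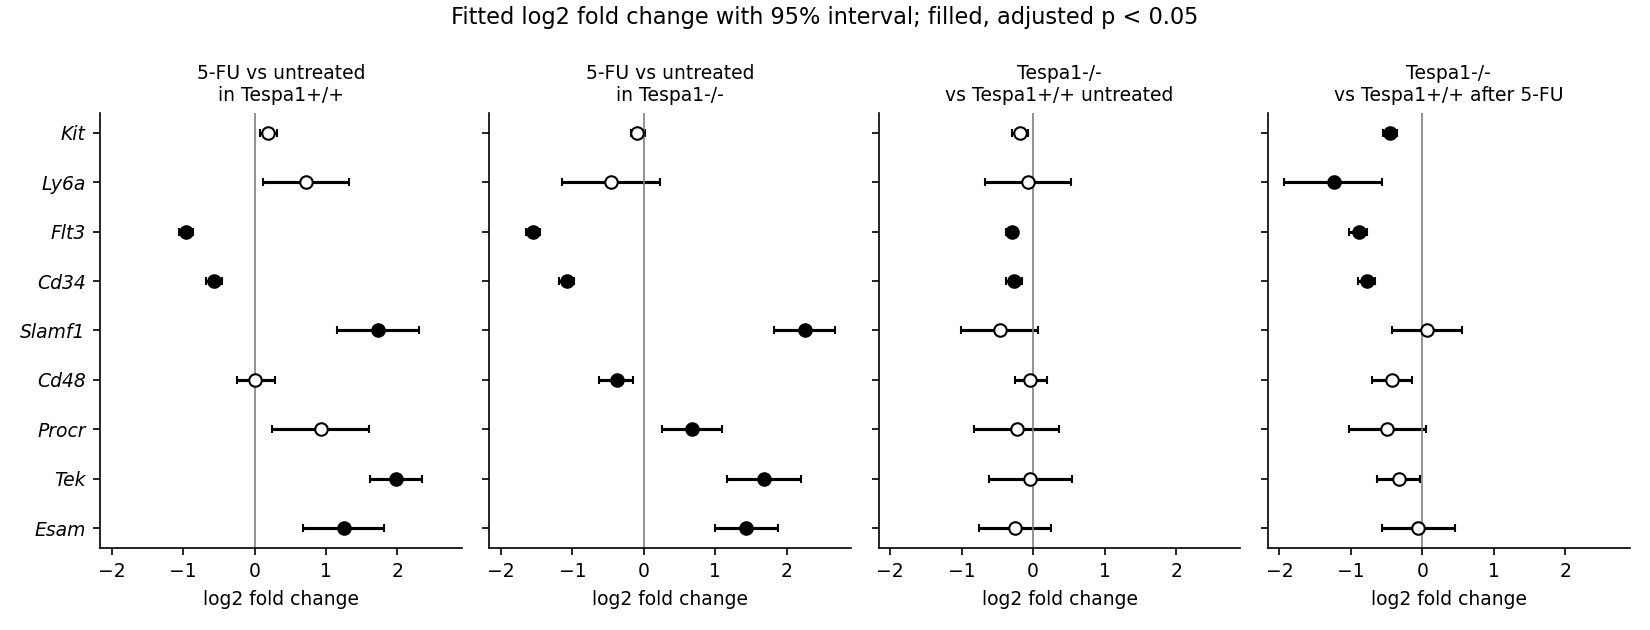
Fitted log2 fold change of the 9 markers (rows) in each of the 4 comparisons (panels), each from 6 libraries, with the 95% interval as a bar. Filled points passed an adjusted p below 0.05 and open points did not. *Slamf1*, *Tek* and *Esam* lie to the right and *Flt3* and *Cd34* to the left in both drug panels, and the 4 filled points after 5-FU in the genotype panel lie left of zero.

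Library totals ran from 22118154 to 28275079 counts, and 3 counts, the smallest number taken as detectable, equalled 0.106 to 0.136 CPM. This limit covers counting error only. *Tespa1* itself stood at 46.8 ± 3.95 CPM (SD, n = 3) in *Tespa1*+/+ and 34.8 ± 0.225 in *Tespa1*-/- without the drug, and 53.1 ± 5.34 in *Tespa1*+/+ and 19.2 ± 1.76 in *Tespa1*-/- on day 9, so its transcripts were lower in the knockout libraries (adjusted p = 0.0316 and 9.38e-05) and not absent. The call in untreated LSKs was lost in some fits with a library left out. Which part of the gene is deleted is not given in the sources used here, so gene-level counts are a limited check of the genotype labels. Every pair of libraries of a group differed by more than sampling noise. In sorted cells measured in bulk, a change in the share of a cell type and a change in RNA per cell cannot be told apart, and this holds for every value given here. All p-values measure the spread between libraries, which may be technical.

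All 9 are protein-coding genes at the same positions in the files and in GENCODE M21. They differed widely in level, as FPKM. *Flt3* was the highest of the 9 in all 4 groups, at 97.5 ± 1.28 FPKM in untreated *Tespa1*+/+ and 27.4 ± 1.14 in *Tespa1*-/- after 5-FU. In the latter group *Kit* stood next to it at 26.4 ± 0.976 FPKM, and the ranges of the libraries of both genes overlapped. *Cd34*, *Kit* and *Cd48* followed *Flt3* in untreated *Tespa1*+/+ at 39.9 ± 1.36, 31.2 ± 1.71 and 26.5 ± 2.38 FPKM. *Ly6a* was far below them at 6.25 ± 1.14 FPKM, although its protein is one of those the cells were sorted on. *Procr*, *Esam*, *Tek* and *Slamf1*, the markers most closely tied to stem cells, were the lowest, between 0.635 and 1.32 FPKM. After 5-FU the same 4 genes stood between 2.18 and 3.27 FPKM in *Tespa1*+/+ and between 1.81 and 3.04 in *Tespa1*-/-, still below *Ly6a* in each group's mean.

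**Figure D2:**
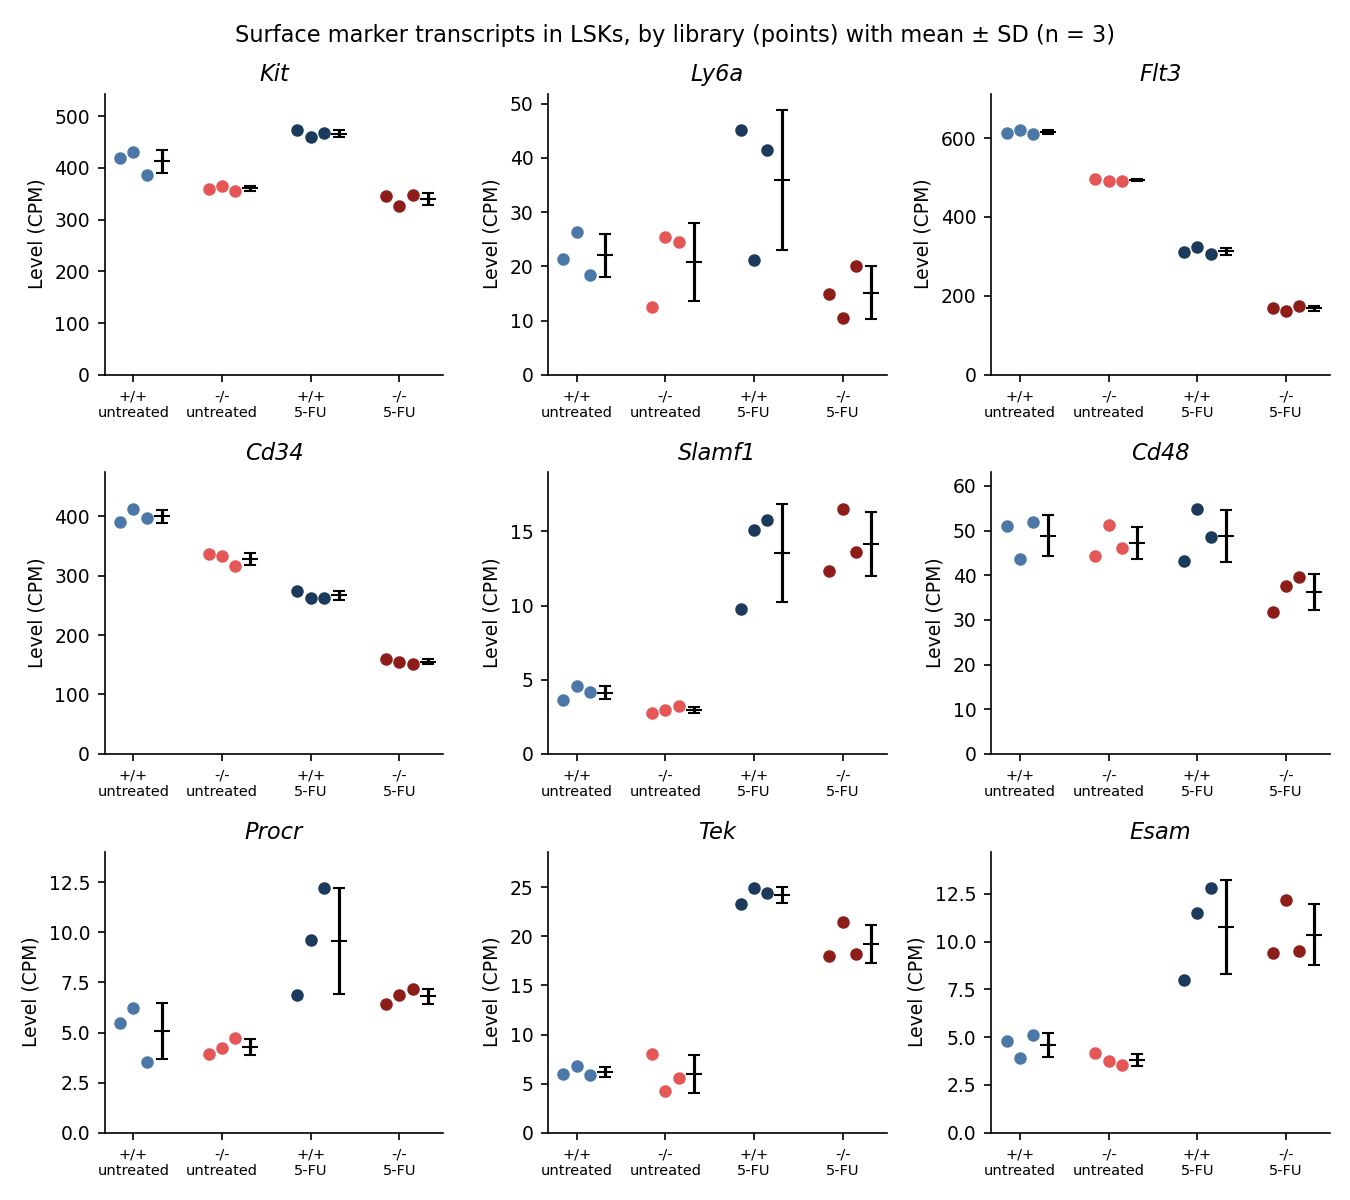
Level of each marker in CPM (vertical axis from zero) in the 4 groups (horizontal axis), with 1 point per library and the mean ± SD of the 3 libraries at the right of each group. *Flt3* and *Cd34* step down from group to group without overlap, whereas *Ly6a* spreads from 21.1 to 45.1 CPM within *Tespa1*+/+ after 5-FU.

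The receptor of the gate, *Kit* (ENSMUSG00000005672, chr5:75574916-75656722 of GRCm38, plus strand), was measured on 7738 to 12150 counts per library. Its level was 420, 431 and 387 CPM in *Tespa1*+/+ and 360, 366 and 355 in *Tespa1*-/- without the drug, and 473, 459 and 467 in *Tespa1*+/+ and 346, 327 and 348 in *Tespa1*-/- on day 9. The 4 groups did not overlap, with *Tespa1*-/- after 5-FU lowest and *Tespa1*+/+ after 5-FU highest. After 5-FU, *Kit* was lower in *Tespa1*-/- with a log2 fold change of -0.45 (SE 0.045, adjusted p = 0.000221), a 1.37-fold difference. In untreated LSKs the difference was -0.18 and was not called (SE 0.049, adjusted p = 0.0782), but it passed with DESeq2 (adjusted p = 0.03), in a fit of all 12 libraries (0.0306) and without the third untreated *Tespa1*+/+ library (0.0373). The response to 5-FU itself was 0.19 in *Tespa1*+/+ (adjusted p = 0.051) and -0.09 in *Tespa1*-/- (adjusted p = 0.202), and the former passed in 4 alternative fits, with adjusted p from 0.0143 to 0.0344. The difference between these responses, tested as the interaction of genotype and drug over the 12 libraries, was -0.27 (SE 0.064, adjusted p = 0.0298), where 5.01% of all 18696 genes were called, 1.99% as lower and 3.02% as higher. Leaving out any of 7 of the 12 libraries, each in turn, moved that adjusted p to between 0.0507 and 0.0872: the third untreated *Tespa1*+/+ library, each untreated *Tespa1*-/- library, the first and the third *Tespa1*+/+ library after 5-FU and the second *Tespa1*-/- library after 5-FU.

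*Ly6a* (ENSMUSG00000075602, chr15:74994877-74998031, minus strand) varied widely between libraries of a group. Its level was 21.4, 26.3 and 18.4 CPM in *Tespa1*+/+ and 12.5, 25.4 and 24.5 in *Tespa1*-/- without the drug, and 45.1, 21.1 and 41.5 in *Tespa1*+/+ and 14.9, 10.5 and 20.1 in *Tespa1*-/- on day 9. The groups overlapped everywhere except between the genotypes after 5-FU, where the lowest *Tespa1*+/+ library stood at 21.1 and the highest *Tespa1*-/- library at 20.1 CPM. The log2 fold change there was -1.24 (SE 0.31, adjusted p = 0.0265), with an interval from -1.93 to -0.56. It was no longer called without the first (adjusted p = 0.0942) or the third (0.0869) *Tespa1*+/+ library, nor without the first (0.089) or second (0.0914) *Tespa1*-/- library. *Ly6a* did not pass in the other comparisons, with differences of -0.07 between untreated genotypes, 0.72 after 5-FU in *Tespa1*+/+ and -0.46 after 5-FU in *Tespa1*-/-. The difference in *Tespa1*+/+ passed with DESeq2 (adjusted p = 0.0373) and without the second library after 5-FU (0.0208).

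*Ly6a* belongs to a cluster of related genes on chromosome 15, and 19% of the stretches of 50 bases in its transcripts also occur in transcripts of other genes, *Ly6c1* and *Ly6i* leading. Of the other 8 markers, no transcript shared more than 2.38%. Reads could therefore be divided between these genes in counting. *Ly6c1* (1.54 to 4.57 CPM in *Tespa1*+/+ and 6.6 to 7.88 in *Tespa1*-/- after 5-FU) went the opposite way to *Ly6a*, with a log2 fold change of 1.43 (SE 0.4, adjusted p = 0.0435). With the counts of *Ly6a*, *Ly6c1* and *Ly6i* summed into 1 feature, an alternative chosen after the data were seen, the difference between the genotypes after 5-FU was -0.79 and not called (adjusted p = 0.0969). *Ly6e*, the most abundant gene of the cluster at 188 to 293 CPM, was lower in *Tespa1*-/- after 5-FU with a log2 fold change of -0.26 (adjusted p = 0.0213). Over the 7 genes of the cluster tested in that comparison, 1 was called higher and 2 lower, where 13.1% of all genes were called.

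*Flt3* (ENSMUSG00000042817, chr5:147330741-147400489, minus strand) showed the largest fall of the 9 after 5-FU. Its level was 613, 620 and 611 CPM in *Tespa1*+/+ and 496, 492 and 492 in *Tespa1*-/- without the drug, and 312, 323 and 305 in *Tespa1*+/+ and 170, 161 and 174 in *Tespa1*-/- on day 9. No groups overlapped. After 5-FU the level fell with a log2 fold change of -0.96 in *Tespa1*+/+ (SE 0.044, adjusted p = 8.76e-06) and of -1.55 in *Tespa1*-/- (SE 0.044, adjusted p = 1.38e-07), folds of 1.94 and 2.93. In *Tespa1*-/- it was lower both without the drug, with a log2 fold change of -0.30 (SE 0.034, adjusted p = 0.00183), and with it, with one of -0.89 (SE 0.054, adjusted p = 1.18e-05). The difference between the drug responses was -0.59 (SE 0.057, adjusted p = 7.29e-05). All 5 of these calls held in every alternative fit without a fold threshold, and the smallest of the differences, that between untreated genotypes, was 1.24-fold.

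*Cd34* (ENSMUSG00000016494, chr1:194938819-194961279, plus strand) followed the same order of groups with smaller steps. Its level was 391, 412 and 397 CPM in *Tespa1*+/+ and 336, 333 and 317 in *Tespa1*-/- without the drug, and 275, 263 and 262 in *Tespa1*+/+ and 159, 155 and 152 in *Tespa1*-/- on day 9. As for *Flt3*, no groups overlapped. The response to 5-FU was -0.57 in *Tespa1*+/+ (SE 0.051, adjusted p = 0.000213) and -1.08 in *Tespa1*-/- (SE 0.047, adjusted p = 1.85e-06), with a difference between them of -0.50 (SE 0.065, adjusted p = 0.000576). After 5-FU, *Cd34* was 1.72-fold lower in *Tespa1*-/- (log2 fold change -0.78, SE 0.052, adjusted p = 2.28e-05). In untreated LSKs it was lower with a log2 fold change of -0.27 (SE 0.047, adjusted p = 0.0146), and this call was lost without the first (adjusted p = 0.0563), the second (0.0669) or the third (0.0802) *Tespa1*-/- library, when 2 libraries were left in that group. An antisense gene, *Gm16897*, overlaps 148 exon bases of *Cd34*, 2.03% of its exons. It was counted at 0 to 30 reads per library, against 3380 to 10726 for *Cd34*.

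*Slamf1* (ENSMUSG00000015316, chr1:171767127-171801184, plus strand), which encodes CD150, rose several-fold after 5-FU from a low level. Its level was 3.65, 4.58 and 4.16 CPM in *Tespa1*+/+ and 2.77, 2.93 and 3.19 in *Tespa1*-/- without the drug, and 9.76, 15.1 and 15.8 in *Tespa1*+/+ and 12.3, 16.5 and 13.6 in *Tespa1*-/- on day 9. These values rest on 63 to 103 counts per untreated library and 251 to 429 after 5-FU. All treated libraries lay above all untreated ones, while the genotypes overlapped after 5-FU and did not overlap before it. The rise was 1.73 in *Tespa1*+/+ (SE 0.25, adjusted p = 0.00326) and 2.25 in *Tespa1*-/- (SE 0.19, adjusted p = 7.02e-05), folds of 3.32 and 4.76. The difference between the rises was 0.53, with an interval from -0.13 to 1.19 (adjusted p = 0.394). Between the genotypes, *Slamf1* differed by -0.47 in untreated LSKs (interval -1.01 to 0.07, adjusted p = 0.344) and by 0.06 after 5-FU (interval -0.43 to 0.55, adjusted p = 0.903), neither of which was called.

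*Cd48* (ENSMUSG00000015355, chr1:171682009-171705258, plus strand) lies 61.9 kb from *Slamf1* on the same strand and did not share its rise. Its level was 51.1, 43.7 and 51.9 CPM in *Tespa1*+/+ and 44.4, 51.2 and 46 in *Tespa1*-/- without the drug, and 43.1, 54.8 and 48.5 in *Tespa1*+/+ and 31.8, 37.6 and 39.6 in *Tespa1*-/- on day 9. The first 3 groups overlapped, and the *Tespa1*-/- libraries after 5-FU lay below all others. The response to 5-FU was 0.01 in *Tespa1*+/+ (SE 0.12, interval -0.25 to 0.28, adjusted p = 0.965). In *Tespa1*-/- it was -0.38 (SE 0.1, adjusted p = 0.0323), a call lost when any untreated library or the first or second library after 5-FU was left out (adjusted p between 0.0598 and 0.128). The genotypes differed by -0.43 after 5-FU and did not pass (SE 0.13, adjusted p = 0.0555), although the difference passed with DESeq2 (0.0149), with library totals in place of TMM (0.0443), under a filter of at least 10 counts in every library (0.0446), in a fit of all 12 libraries (0.0249) and without the first *Tespa1*+/+ library after 5-FU (0.0469).

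CD150 and CD48 are read together in the SLAM code for HSCs, so their transcripts were also compared within each library, where scaling cancels. In untreated *Tespa1*+/+ there were 7.14, 10.5 and 8.02 *Slamf1* counts per 100 *Cd48* counts, and in untreated *Tespa1*-/- there were 6.23, 5.71 and 6.93. After 5-FU there were 22.7, 27.6 and 32.7 in *Tespa1*+/+ and 38.8, 44 and 34.2 in *Tespa1*-/-. The 4 groups did not overlap, with *Tespa1*-/- lowest before the drug and highest after it. The mean log2 ratio after 5-FU was above that of untreated LSKs by 1.70 in *Tespa1*+/+ and by 2.63 in *Tespa1*-/-. The difference of *Tespa1*-/- from *Tespa1*+/+ was -0.43 in untreated LSKs and 0.51 after 5-FU. Each of the 4 comparisons gave p = 0.1 in a two-sided exact permutation test, and remained at 0.1 after adjustment over the 4, which is the smallest p that 3 libraries against 3 allow.

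**Figure D3:**
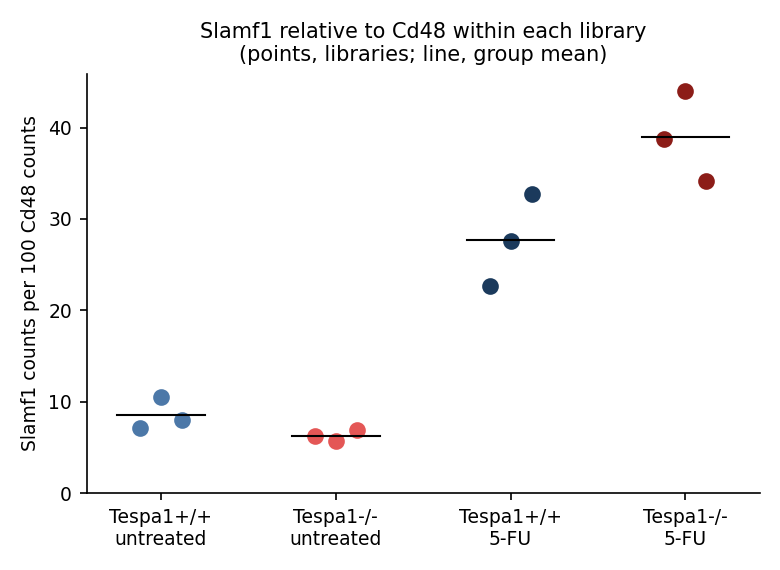
Number of *Slamf1* counts per 100 *Cd48* counts in each library (points, vertical axis from zero) in the 4 groups, with the group mean as a line. Untreated libraries lie between 5.71 and 10.5, and libraries after 5-FU between 22.7 and 44.

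*Slamf1* and *Cd48* belong to the SLAM family, a set of neighbouring receptor genes on chromosome 1 whose proteins bind each other between immune cells. Of the 11 genes listed as the family and its adaptors, 8 were tested for the response to 5-FU in *Tespa1*+/+. Of these, 4 were called higher and 0 lower, where 7.95% of all genes were called. In *Tespa1*-/-, 3 were higher and 2 lower, of 9 tested, where 19.4% of all genes were called. The 2 genes that rose with *Slamf1* in both genotypes were *Slamf7*, by 5.16 (SE 0.62, adjusted p = 0.00117) and 3.95 (SE 0.25, adjusted p = 1.7e-05), and *Slamf6*, by 2.30 (SE 0.39, adjusted p = 0.00761) and 2.19 (SE 0.17, adjusted p = 4.49e-05). *Slamf7* rose from 0 to 14 counts per untreated *Tespa1*+/+ library to 320 to 343 after 5-FU. *Cd84* was higher in *Tespa1*+/+ (0.51, adjusted p = 0.0214) and *Ly9* was lower in *Tespa1*-/- (-0.54, adjusted p = 0.00422). Along the chromosome the order was *Ly9*, *Slamf7*, *Cd48*, *Slamf1*, *Cd84* and *Slamf6*, so *Cd48*, which did not rise, stood between *Slamf7* and *Slamf1*, which did. *Slamf6*, *Slamf7*, *Cd84* and *Ly9* were picked from the list after their values were seen.

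**Figure D4:**
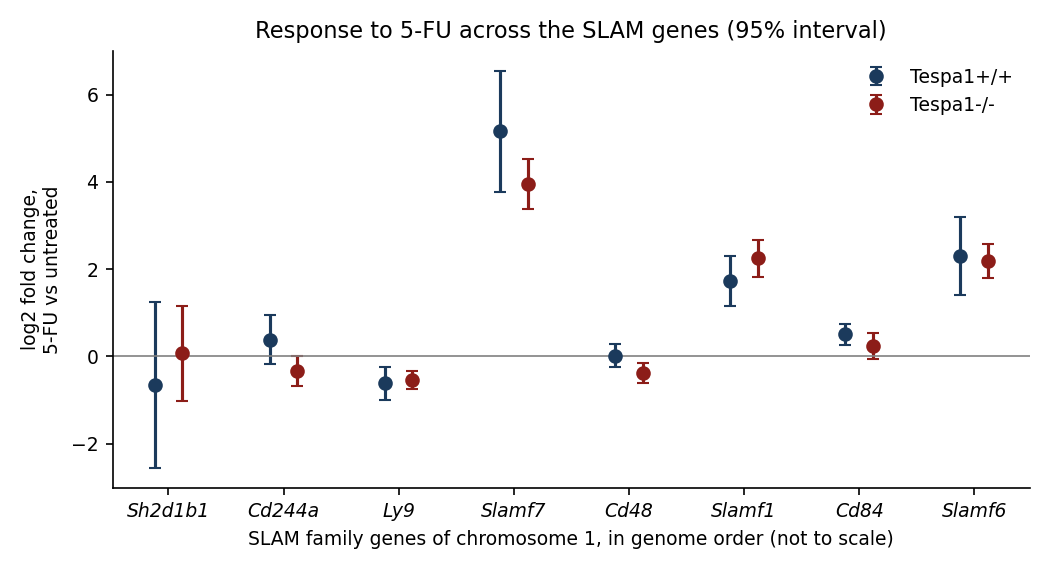
Fitted log2 fold change after 5-FU (vertical axis, with 95% intervals) of the 8 SLAM family and adaptor genes of chromosome 1 that were tested in both genotypes, set in genome order and not to scale. *Slamf7*, *Slamf1* and *Slamf6* lie above zero in both genotypes, and *Cd48*, which stands between *Slamf7* and *Slamf1*, lies at 0.01 and -0.38.

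*Tek* (ENSMUSG00000006386, chr4:94739289-94874976, plus strand) had the largest rise of the 9 in *Tespa1*+/+. Its level was 5.98, 6.76 and 5.88 CPM in *Tespa1*+/+ and 8.04, 4.3 and 5.59 in *Tespa1*-/- without the drug, and 23.3, 24.9 and 24.4 in *Tespa1*+/+ and 18, 21.5 and 18.2 in *Tespa1*-/- on day 9. Untreated genotypes overlapped, and after 5-FU the *Tespa1*-/- libraries lay below the *Tespa1*+/+ ones. The rise was 1.98 in *Tespa1*+/+ (SE 0.16, adjusted p = 0.000113) and 1.68 in *Tespa1*-/- (SE 0.23, adjusted p = 0.00122), and the difference between the rises was -0.28 (interval -0.88 to 0.32, adjusted p = 0.66). The genotype difference after 5-FU was -0.33 (interval -0.63 to -0.03) and did not pass (adjusted p = 0.143).

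*Esam* (ENSMUSG00000001946, chr9:37528078-37538319, plus strand) rose in both genotypes. Its level was 4.78, 3.92 and 5.11 CPM in *Tespa1*+/+ and 4.17, 3.77 and 3.54 in *Tespa1*-/- without the drug, and 8.01, 11.5 and 12.8 in *Tespa1*+/+ and 9.4, 12.2 and 9.5 in *Tespa1*-/- on day 9. Treated and untreated libraries did not overlap, and the genotypes overlapped in both states. The rise was 1.43 in *Tespa1*-/- (SE 0.19, adjusted p = 0.00108) and 1.25 in *Tespa1*+/+ (SE 0.25, adjusted p = 0.0164). The latter call was lost without the first (adjusted p = 0.0507) or second (0.0633) untreated library, and without the second (0.0691) or the third (0.0723) library after 5-FU. The difference between the rises was 0.20 (interval -0.46 to 0.86, adjusted p = 0.8).

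*Procr* (ENSMUSG00000027611, chr2:155751117-155755471, plus strand) was called in 1 genotype alone. Its level was 5.47, 6.23 and 3.53 CPM in *Tespa1*+/+ and 3.91, 4.21 and 4.72 in *Tespa1*-/- without the drug, and 6.88, 9.62 and 12.2 in *Tespa1*+/+ and 6.42, 6.86 and 7.16 in *Tespa1*-/- on day 9. All libraries after 5-FU lay above all untreated ones. The larger difference, 0.93 in *Tespa1*+/+, was not called (SE 0.3, adjusted p = 0.101), and the smaller, 0.67 in *Tespa1*-/-, was (SE 0.19, adjusted p = 0.0353). The call in *Tespa1*-/- was lost whichever library was left out (adjusted p between 0.0507 and 0.129), and also in a fit of all 12 libraries (0.0937). The difference in *Tespa1*+/+ passed in that fit (adjusted p = 0.0293) and with DESeq2 (0.0461). Between the genotypes after 5-FU, *Procr* differed by -0.49 (interval -1.03 to 0.05, adjusted p = 0.236).

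Counting groups that did not overlap, irrespective of the test, *Tespa1*-/- libraries lay wholly below *Tespa1*+/+ ones for 4 markers in untreated LSKs and for 6 after 5-FU, and wholly above them for 0 in both. Over all genes, 25.5% did not overlap in the first case, 14.1% as lower and 11.4% as higher, and 33.1% in the second, 15.9% as lower and 17.2% as higher. After 5-FU, 5 markers lay wholly above and 2 wholly below the untreated libraries in *Tespa1*+/+, where 28.7% of all genes did not overlap (13.2% above and 15.5% below). In *Tespa1*-/- it was 4 above and 4 below, where 38.6% did not overlap (19.8% above and 18.8% below). At the thresholds of the study, an unadjusted p below 0.05 and a fold above 1.5, 0 markers were called between untreated genotypes, where 6.74% of all genes were (3.54% higher and 3.2% lower). After 5-FU, *Ly6a*, *Flt3* and *Cd34* were lower and 0 higher in *Tespa1*-/-, where 11.7% of all genes were called (5.79% higher and 5.94% lower). For the response to 5-FU these thresholds called 5 markers higher and 1 lower in *Tespa1*+/+, where 9.88% of all genes were called (6.33% higher and 3.54% lower), and 4 higher and 2 lower in *Tespa1*-/-, where 14.4% were (7.78% higher and 6.58% lower).

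The ligands of these receptors differed in level in the LSK libraries. FLT3 ligand (*Flt3l*) was counted at 77 to 268 reads per library, with group means from 4.76 to 7.53 CPM, and was called in none of the 4 comparisons (adjusted p from 0.321 to 0.86). Stem cell factor (*Kitl*) was counted at 0 to 14 reads per library, and *Angpt2* and *Proc*, which encode a ligand of TIE2 and protein C, at 0 to 8 and 0 to 26. *Angpt1*, the activating ligand of TIE2, was abundant and followed the genotype. It stood at 210 ± 2.74 CPM (SD, n = 3) in *Tespa1*+/+ and 159 ± 3.92 in *Tespa1*-/- without the drug, and 229 ± 8.83 in *Tespa1*+/+ and 123 ± 5.97 in *Tespa1*-/- on day 9. It was lower in *Tespa1*-/-, with a log2 fold change of -0.38 in untreated LSKs (SE 0.05, adjusted p = 0.0038) and of -0.90 after 5-FU (SE 0.061, adjusted p = 2.66e-05). *Tie1*, which pairs with TIE2, was higher after 5-FU in *Tespa1*+/+ (0.58, adjusted p = 0.0297), and in *Tespa1*-/- the difference was 0.13 and not called (adjusted p = 0.401). The difference between these responses did not pass (-0.44, adjusted p = 0.137). Of the 10 ligands and partners listed, 6 were tested. Between untreated genotypes, 0 were called higher and 3 lower (5.23% of all genes were called), and between genotypes after 5-FU 0 and 1 (13.1%). For the response to 5-FU it was 2 and 0 in *Tespa1*+/+ (7.95%) and 2 and 1 in *Tespa1*-/- (19.4%). *Angpt1* and *Tie1* were chosen after their values were seen.

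Of 40 other surface markers of stem and progenitor cells, 38 were tested between untreated genotypes, where 7 were lower and 1 higher in *Tespa1*-/- (5.23% of all genes were called), and 40 after 5-FU, where 11 were lower and 9 higher (13.1% of all genes). Named by a rule of size, the largest differences between untreated genotypes were *Itga2b* (CD41, 0.81) upward, and *Icam1* (-0.92), *Cd33* (-0.61) and *Cd44* (-0.41) downward. After 5-FU they included *Prom1* (4.85), *Vcam1* (2.46) and *Fcgr3* (1.81) upward, and *Robo4* (-1.16) and *Cd33* (-0.79) downward. *Prom1* was counted at 272 to 407 reads per *Tespa1*-/- library after 5-FU and at 1 to 28 in the other groups. After 5-FU in *Tespa1*+/+, where 7.95% of all genes were called, 7 of 39 tested markers were higher, led by *Neo1* (4.49), *Itga2b* (1.44) and *Fcgr3* (1.41), and 8 lower, led by *Cd33* (-1.25), *Cd44* (-1.14) and *Icam1* (-0.68). In *Tespa1*-/-, where 19.4% were called, 13 of 39 were higher, led by *Prom1* (5.49), *Vcam1* (2.56) and *Fcgr3* (2.40), and 11 lower, led by *Cdh5* (-1.51), *Cd33* (-1.44) and *Robo4* (-1.02).

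The genes whose pattern over the 12 libraries lay nearest to each marker were found by the root mean square (RMS) difference of centred log2(CPM + 1) among 14934 genes. For *Flt3* they were *Epb41l3* (RMS 0.125, where the marker's own SD was 0.712) and *Zbtb10* (0.176), for *Cd34* *Gm10709* (0.114) and *Cd27* (0.118, own SD 0.508), and for *Kit* *Baz2b* (0.056) and *Nrip1* (0.064, own SD 0.181). *Zbtb10* went from 122 CPM in untreated *Tespa1*+/+ to 27.9 in *Tespa1*-/- after 5-FU, and *Cd27*, another receptor of multipotent progenitors, from 103 to 44.3. Nearest to *Slamf1* were *Blnk* (0.207) and *Col27a1* (0.226, own SD 0.881), to *Tek* *Selp* (0.213) and *Gm45745* (0.232, own SD 0.869), and to *Esam* *Clstn3* (0.167) and *Cd9* (0.185, own SD 0.602). *Selp*, the P-selectin gene, was at 8.94 and 8.89 CPM in untreated *Tespa1*+/+ and *Tespa1*-/- and at 35.5 and 23.6 after 5-FU. *Procr* was nearest to *Aldh1l1* (0.14) and *Hgf* (0.191, own SD 0.432), *Cd48* to *Smad1* (0.086) and *Dctn4* (0.091, own SD 0.212), and *Ly6a* to *Gm18310* (0.261) and *Zfp40* (0.288, own SD 0.567).

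Promoters were read for the 2 markers that fell in both genotypes after 5-FU and the 2 with the largest rises, to show the DNA in front of genes that moved together. The sequences are the 250 bases before the RefSeq start site in GRCm38.p6, 5′ to 3′ on the strand of the gene, with a match to a searched motif in capitals. RefSeq promoters were found for 7 of the 9 markers, all but *Ly6a* and *Esam*.
Flt3, chr5:147400490-147400739, minus strand: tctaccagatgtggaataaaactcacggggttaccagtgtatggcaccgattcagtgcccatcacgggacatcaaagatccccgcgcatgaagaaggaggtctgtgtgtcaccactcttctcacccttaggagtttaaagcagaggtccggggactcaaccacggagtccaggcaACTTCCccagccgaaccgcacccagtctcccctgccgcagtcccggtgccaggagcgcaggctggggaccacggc
Cd34, chr1:194938571-194938820, plus strand: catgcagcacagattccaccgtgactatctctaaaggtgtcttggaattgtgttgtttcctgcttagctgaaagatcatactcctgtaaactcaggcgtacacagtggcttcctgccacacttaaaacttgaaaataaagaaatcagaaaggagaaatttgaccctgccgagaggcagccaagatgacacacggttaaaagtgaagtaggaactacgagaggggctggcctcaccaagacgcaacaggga
Slamf1, chr1:171766882-171767131, plus strand: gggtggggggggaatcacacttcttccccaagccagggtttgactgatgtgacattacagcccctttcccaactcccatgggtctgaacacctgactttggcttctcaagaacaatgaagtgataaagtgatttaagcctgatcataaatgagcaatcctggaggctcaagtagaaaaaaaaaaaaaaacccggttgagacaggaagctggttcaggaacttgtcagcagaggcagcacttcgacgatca
Tek, chr4:94739039-94739288, plus strand: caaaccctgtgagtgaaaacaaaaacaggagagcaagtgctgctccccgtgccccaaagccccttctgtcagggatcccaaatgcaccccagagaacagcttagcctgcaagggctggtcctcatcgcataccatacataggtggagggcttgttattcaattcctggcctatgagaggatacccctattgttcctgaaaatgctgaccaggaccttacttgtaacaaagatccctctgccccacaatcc

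Core motifs of 4 families of blood transcription factors were searched on both strands. The RUNX motif was spelled TGTGGT, that of the ETS family GGAAGT, the E-box CACGTG, and the motif of the erythroid GATA factors AGATAA. The capitals in the *Flt3* promoter are GGAAGT read on the opposite strand, 75 to 70 bases before the start. The *Cd34*, *Slamf1* and *Tek* windows held 0 matches to these 4 spellings, and other spellings of the motifs were not searched. Of the other promoters, *Cd48* held TGTGGT at 76 to 71 bases before the start. Its window ends at 171681991, before the start of the gene in GENCODE M21 at 171682009. The bases after that window were not found in a *Cd48* transcript. Of 32817 promoter windows of the same length, 14% held TGTGGT, 9.99% AGATAA, 19.7% GGAAGT and 6.02% CACGTG. The *Flt3* promoter was 59.2% GC, that of *Tek* 51.2%, *Slamf1* 47.2% and *Cd34* 46.4%. A match is a description of letters and not a bound site.

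The libraries also differed in transcripts of genes that mark cells outside the LSK gate, and these differed between the groups compared. Which cells these transcripts came from was not tested. The summed level of 11 neutrophil markers was 2.53 to 2.67 CPM in *Tespa1*+/+ and 6.94 to 8.04 in *Tespa1*-/- without the drug, and 9.12 to 13.3 in *Tespa1*+/+ and 1040 to 1050 in *Tespa1*-/- on day 9. The 10 erythroid markers went from 20.9 to 26.3 CPM in untreated *Tespa1*+/+ to 476 to 484 in *Tespa1*-/- after 5-FU, and the 9 mast cell and basophil markers from 17.8 to 20.9 to 127 to 144. *Camp*, *Ltf* and *Cd177* of the neutrophil list and *Fcer1a*, *Cma1* and *Tpsb2* of the mast cell list were at 0 in every untreated *Tespa1*+/+ library, and no gene of these lists was at 0 throughout *Tespa1*-/- after 5-FU. Between the genotypes after 5-FU, 10 of 11 neutrophil, 10 of 10 erythroid, 6 of 9 mast cell and basophil, 1 of 7 megakaryocyte, 1 of 8 macrophage and 2 of 8 B cell markers tested were called higher and 0 lower. The macrophage gene called, *Vcam1*, and the megakaryocyte gene called also belong to the other surface markers above. Between untreated genotypes, 1 of 8 erythroid and 1 of 7 macrophage markers were higher, 3 of 7 B cell markers were lower, and 0 were called of 5 neutrophil, 5 mast cell and basophil and 6 megakaryocyte markers. After 5-FU in *Tespa1*+/+, 7 of 7 B cell, 2 of 6 megakaryocyte, 5 of 8 mast cell and basophil, 3 of 7 erythroid, 2 of 6 neutrophil and 0 of 7 macrophage markers were higher, and 0 were lower. The same count in *Tespa1*-/- was 7 of 8 B cell, 6 of 6 megakaryocyte, 9 of 9 mast cell and basophil, 10 of 10 erythroid, 10 of 11 neutrophil and 3 of 8 macrophage markers higher, and 1 macrophage marker lower. In both genotypes, *Slamf1*, *Tek* and *Esam* were also called higher after 5-FU, and *Flt3* and *Cd34* lower. Between the genotypes after 5-FU, the log2 fold changes of *Slamf1*, *Tek* and *Esam* were 0.06, -0.33 and -0.06, without a call. *Flt3* and *Cd34* were lower there, at -0.89 and -0.78. Megakaryocyte markers summed to 47.1 to 66.8 CPM in *Tespa1*+/+ and 90.4 to 103 in *Tespa1*-/- after 5-FU, up from 20.8 to 25.4 and 25.9 to 32.5 without the drug, macrophage markers to 68.1 to 71.7 and 89.1 to 113, where they were 81.5 to 96.8 and 110 to 115 before, and B cell markers to 287 to 297 and 325 to 343, up from 65.5 to 77 and 42.2 to 48.2 without the drug. The 8 lineage genes of the gate summed to 35.1 to 47.5 CPM in untreated *Tespa1*+/+ and 39.3 to 41.2 in untreated *Tespa1*-/-. After 5-FU they summed to 73.2 to 88.8 CPM in *Tespa1*+/+ and 146 to 149 in *Tespa1*-/-. All 3 *Tespa1*-/- libraries after 5-FU showed this, so no comparison with that group could be repeated without it. The part of these transcripts in the lower *Kit*, *Ly6a*, *Flt3* and *Cd34* of *Tespa1*-/- LSKs, or in the responses to 5-FU, was not tested.

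Because *Tek*, *Procr* and *Esam* are also endothelial genes, 10 other endothelial markers were counted beside them. Their sum was 90.7 to 111 CPM in *Tespa1*+/+ and 110 to 114 in *Tespa1*-/- without the drug, and 169 to 178 in *Tespa1*+/+ and 225 to 242 in *Tespa1*-/- on day 9, and none of the 10 was at 0 in a whole group. After 5-FU, 2 of 10 were called higher and 0 lower in *Tespa1*+/+, where 7.95% of all genes were called. In *Tespa1*-/-, 2 of 9 were higher and 2 lower, where 19.4% of all genes were called. Those that rose were *Vwf*, by 2.36 in *Tespa1*+/+ (adjusted p = 1.18e-05) and 2.46 in *Tespa1*-/- (adjusted p = 4.23e-06), and *Aqp1*, by 1.63 (adjusted p = 0.000443) and 1.83 (adjusted p = 8.15e-05). Those that fell in *Tespa1*-/- were *Stab2* (-1.16, adjusted p = 0.00857) and *Egfl7* (-0.35, adjusted p = 0.0201). The log2 fold changes of the other 8 in *Tespa1*+/+ ran from -1.08 to 0.94, and of the other 5 in *Tespa1*-/- from -1.36 to 0.47. A large part of the endothelial sum after 5-FU lay in *Vwf* and *Aqp1*. Their means were 67.8 and 30.3 CPM in *Tespa1*+/+ and 89.3 and 91.3 in *Tespa1*-/-. Without the drug they were 13.4 and 9.87, and 16.2 and 25.6. Between untreated genotypes, 1 of 9 endothelial markers was called higher (*Aqp1*, 1.39) and 0 lower, where 5.23% of all genes were called. After 5-FU, 2 of 10 were higher (*Aqp1*, 1.59, and *Vwf*, 0.40) and 2 lower, where 13.1% of all genes were called. The sum of *Procr*, *Tek* and *Esam* went from 14.5 to 16.9 CPM to 38.2 to 49.4 in *Tespa1*+/+, and from 12.3 to 16.1 to 33.8 to 40.6 in *Tespa1*-/-. The part of endothelial transcripts in this was not tested.

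**Figure D5:**
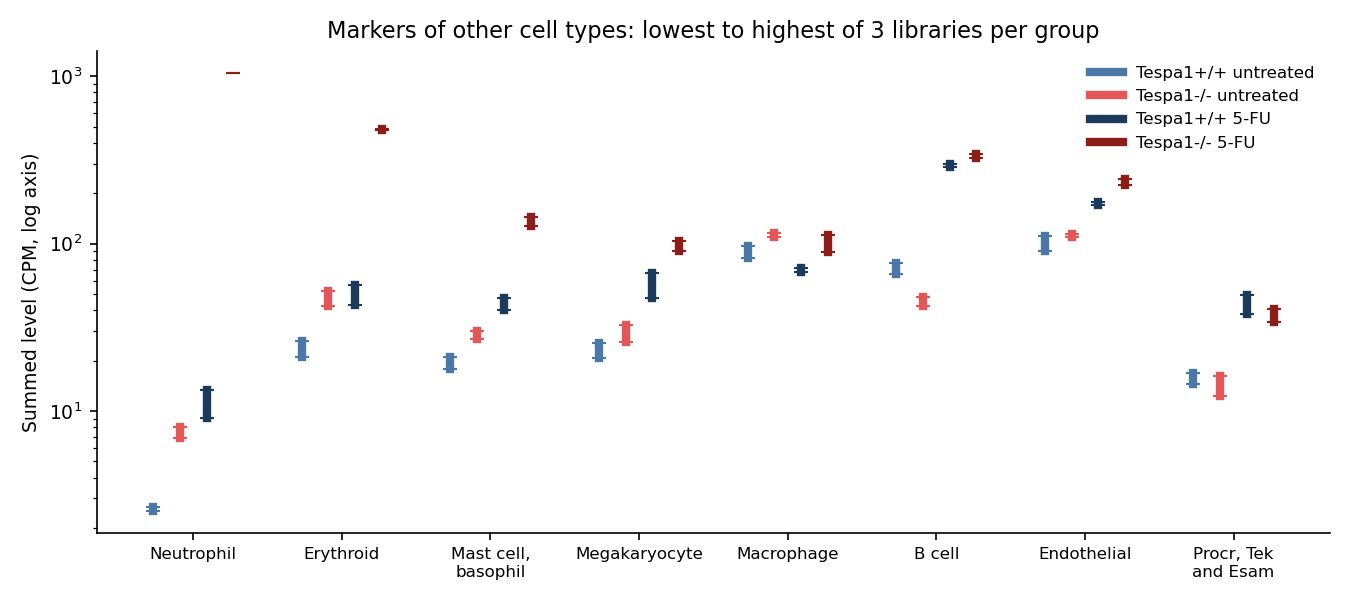
Summed level of the marker genes of 7 other cell types and of *Procr*, *Tek* and *Esam* (horizontal axis) in CPM on a log axis, drawn from the lowest to the highest of the 3 libraries of each group. The neutrophil sum of *Tespa1*-/- LSKs after 5-FU, 1040 to 1050, stands far above the other groups, while the sum of *Procr*, *Tek* and *Esam* separates by drug.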

How the data were processed

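RNA-seq of LSKs was used in 4 groups of 3 libraries. The authors deposited a table with raw read counts per gene for each library, and FPKM, which divides those counts by gene length and library total. The submitters' processing notes name CASAVA 1.8, HISAT2, StringTie, edgeR and GRCm38. The labels describe a stranded kit, and whether the counting used strand is not given in the sources used here. All 12 count columns and 12 FPKM columns were matched to a library by name, and 0 were left over.

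Counts were filtered with filterByExpr (minimum count 10), scaled with TMM and tested with the quasi-likelihood test of edgeR 4.0.16 in R 4.3.3, on the 6 libraries of each comparison, or all 12 for the interaction. Adjustment was by Benjamini-Hochberg. The test was first run on simulated counts with known changes. DESeq2 1.42.0, other scalings and filters, a fit of all 12 libraries, the replicate number as a block, and fits without 1 library at a time were alternatives. FPKM were used only to set genes side by side, and ratios of *Slamf1* to *Cd48* were tested by exact permutation. Promoters are from RefSeq, and overlaps and shared stretches were read from GENCODE M21. Figures and summaries were made with Python 3.11, pandas 2.3.3, NumPy 2.4.6 and matplotlib 3.10.9.

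The markers, the gene lists and the comparisons were chosen with earlier results of these data known. Named by rule were the 9 markers, *Tespa1*, in each comparison the 3 largest called rises and falls among the other surface markers with a mean of at least 1 CPM, and the 2 genes nearest to each marker. One gene that the rule names is not reported here. Names outside the rule are marked in the text, and *Vwf*, *Aqp1*, *Stab2*, *Egfl7*, *Flt3l*, *Ly6c1*, *Ly6c2*, *Ly6i*, *Ly6e*, *Kitl*, *Angpt2*, *Proc*, *Camp*, *Ltf*, *Cd177*, *Fcer1a*, *Cma1* and *Tpsb2*, from the fixed lists, and *Gm16897*, which overlaps *Cd34*, are further such names. Same-numbered libraries of different groups did not deviate together (correlations of deviations from -0.066 to 0.029).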

Additional observations from a re-analysis of the deposited data

Results flagged for a closer look

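The interaction of genotype and 5-FU, a test over the 12 libraries of whether the response to the drug differed between the genotypes, passed for 3 of the 9 markers, where 5.01% of all 18696 genes were called, 1.99% as lower and 3.02% as higher. The difference of the log2 responses was -0.59 for *Flt3* (SE 0.057, adjusted p = 7.29e-05) and -0.5 for *Cd34* (SE 0.065, adjusted p = 0.000576), both of which fell in either genotype and fell further in *Tespa1*-/-. It was -0.27 for *Kit* (SE 0.064, adjusted p = 0.0298), which was higher after the drug in 3 of 3 *Tespa1*+/+ libraries and lower in 3 of 3 *Tespa1*-/- libraries, without either response being called. The interaction call of *Kit* was lost in 7 of 12 fits with a library left out. It was also lost without the filter on low counts (adjusted p = 0.0914) and with the replicate block (0.056).

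The genotype difference in the log2 ratio of *Slamf1* to *Cd48* counts was negative in untreated LSKs and positive after 5-FU. The change from one to the other was 0.93. It was picked out because all *Tespa1*-/- libraries lay below all *Tespa1*+/+ ones without the drug and above them after it, and the difference was not tested. Neither *Slamf1* nor *Cd48* alone passed the interaction test (adjusted p = 0.394 and 0.215).

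Of the other named genes, the responses to 5-FU also differed between the genotypes by 5.54 for *Prom1* (SE 1.2, adjusted p = 0.0136), 2.43 for *Vcam1* (SE 0.35, adjusted p = 0.00125), 0.52 for *Icam1* (SE 0.12, adjusted p = 0.0297), -0.99 for *Robo4* (SE 0.25, adjusted p = 0.0399), -3.72 for *Neo1* (SE 0.91, adjusted p = 0.0339) and -0.51 for *Angpt1* (SE 0.076, adjusted p = 0.00155). They differed as well by 1.09 for *Cd63* (SE 0.18, adjusted p = 0.00345), and, among the genes nearest to a marker, by -0.53 for *Cd27* (SE 0.12, adjusted p = 0.0232), -0.56 for *Gm10709* (SE 0.1, adjusted p = 0.00631) and 0.72 for *Blnk* (SE 0.15, adjusted p = 0.0149). With a library left out, the calls of *Prom1*, *Icam1*, *Robo4*, *Neo1*, *Cd27* and *Blnk* were lost in some fits. *Neo1* was counted at 0 to 9 reads per untreated *Tespa1*+/+ library, and *Prom1* at 4 to 24 per *Tespa1*+/+ library after 5-FU. *Tespa1* differed by -1.05 (SE 0.15, adjusted p = 0.00104). The neutrophil and erythroid sums were highest in *Tespa1*-/- after 5-FU, and their part in these differences was not tested.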

How the results depend on the processing

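Of the 635 alternative values of the 9 markers' log2 fold changes, 569 kept their direction and their side of the threshold, 36 lost a call, 16 gained one and 14 changed sign. For the other named genes, 1745 kept both, 126 lost a call, 15 gained one and 36 changed sign. Of the values that changed sign, 0 were called in the text and 0 under the alternative. The changes of sign came mostly with 1 library left out. Between untreated genotypes the values ran from -0.24 to 0.20 for *Ly6a* (0.07 with the related genes summed), -0.31 to 0.15 for *Tek*, -0.11 to 0.01 for *Cd48*, -0.05 to 0.05 for *Cd84* (-0.02 without the filter), -0.15 to 0.32 for *Vcam1*, -0.33 to 0.16 for *Stab2* and -0.21 to 0.54 for *Cdh5*. Between genotypes after 5-FU they ran from -0.13 to 0.18 for *Slamf1*, -0.23 to 0.09 for *Esam* and -0.23 to 0.11 for *Ly9*. After 5-FU in *Tespa1*+/+ they ran from -0.08 to 0.09 for *Cd48*, -0.19 to 0.07 for *Robo4* (0.03 with library totals), -0.40 to 0.65 for *Ly6c1*, -0.03 to 0.43 for *Vcam1*, -0.23 to 0.06 for *Egfl7* and -0.65 to 0.11 for *Cdh5*, and in *Tespa1*-/- from -0.27 to 0.0 for *Ly6e*. Interactions ran from -0.08 to 0.20 for *Ly6e* (-0.02 with library totals), -0.68 to 0.22 for *Slamf6*, -0.39 to 0.11 for *Stab2*, -0.09 to 0.24 for *Ly9* and -0.07 to 0.57 for *Ly6c2*. With 1 library left out, calls were lost in at least 1 fit for the interactions of *Robo4*, *Icam1*, *Neo1*, *Prom1*, *Cd27* and *Blnk*, for *Cd33*, *Cd44*, *Icam1*, *Ly6c1*, *Ly6c2*, *Ly6e*, *Vwf*, *Egfl7* and *Tespa1* (untreated, adjusted p up to 0.14) between genotypes, and for *Fcgr3*, *Tie1*, *Cd84*, *Cd27*, *Gm10709*, *Egfl7*, *Ly6c1* and *Ly6c2* after 5-FU. The count of markers lower between untreated genotypes, 2 in the text, was 0 at the study's thresholds and 0 with a fold above 1.5 added to the adjusted p. The count higher after 5-FU in *Tespa1*+/+, 3 in the text, was 6 with DESeq2, 5 in a fit of all 12 libraries and 5 at the study's thresholds, and the count lower, 2 in the text, was 1 at the study's thresholds and 1 with the fold added. The count of interactions, 3 in the text, was 1 with the fold added. *Kit* also lost its interaction call without the filter on low counts (adjusted p = 0.0914), and *Procr* its call in *Tespa1*-/- (0.103). With each library left out in turn, the counts ran from 1 to 3 (lower, untreated genotypes), 3 to 4 (lower, genotypes after 5-FU), 2 to 3 (higher, 5-FU in *Tespa1*+/+), 3 to 3 (higher, 5-FU in *Tespa1*-/-), 2 to 3 (lower, 5-FU in *Tespa1*-/-) and 2 to 3 (interaction), and fewer libraries remained in each of these fits. The cause of the other changes was not tested. The share of all genes called moved as well. Between untreated genotypes, 5.23% in the text, it was 8.37% with DESeq2, 2.02% without the filter, 2.66% with the replicate block, 3.08% without the second *Tespa1*+/+ library and 1.9 to 2.05% without any 1 *Tespa1*-/- library. Between genotypes after 5-FU (13.1%) it was 5.98% without the filter and 8.37 to 8.48% without any 1 *Tespa1*-/- library. After 5-FU in *Tespa1*+/+ (7.95%) it was 12.1% with DESeq2, 3.88% without the filter, 4.81% without the second untreated library and 4.39 to 4.58% without any 1 treated library, and in *Tespa1*-/- (19.4%) 7.87% without the filter and 12.6% without the second untreated library. For the interaction (5.01%) it was 8.21% with DESeq2, 2.01% without the filter, 2.89 to 3.08% without any 1 untreated *Tespa1*-/- library and 3.17% without the second treated one. With the fold added, the shares were 2.51%, 6.98%, 4.43%, 10.1% and 3.21% in this order.

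Replicate numbers are shared between groups in the labels, but same-numbered libraries did not deviate together over the genes tested. This check would miss pairing that acts on few genes, so it cannot exclude pairing. The main fits treated the libraries as unpaired. With the replicate block, 1 marker was lower between untreated genotypes, since *Cd34* reached an adjusted p of 0.052, and 3 were higher after 5-FU in *Tespa1*-/-, without *Procr* (0.0674). The interaction was called for 2, without *Kit* (0.056). Counts in the other comparisons were as in the text, at 4 lower after 5-FU, and 3 higher and 2 lower after 5-FU in *Tespa1*+/+. The paired ratio differences of *Slamf1* to *Cd48* were -0.43, 0.51, 1.70 and 2.63, each with an exact p of 0.25, the smallest for 3 pairs. *Slamf1*, *Procr*, *Esam* and *Tek* rest on few counts, and their intervals limit what genotype differences could be seen.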
